A study of Homo sapiens with 40 samples.

Results

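The E2F factors, pocket proteins and B-MYB were examined as 10 genes chosen by name, E2F1, E2F2, E2F3, E2F4, E2F7, E2F8, RB1, RBL1, RBL2 and MYBL2, out of 60708 genes in the count tables. Their RNA was counted in 24 RNA-seq libraries, with 3 libraries in each of 8 groups. MI-spheres are 3D cultures of MCF-10A, an immortalized mammary epithelial cell line, and MII-spheres are the same kind of culture of MCF-10AneoT, its derivative transformed with oncogenic HRAS. Spheres grew in ultra-low attachment plates and were left unstimulated (Ctrl) or received TGFβ at 2.5 ng/ml for 16 h. The remaining libraries came from MDA-MB-231, a mesenchymal-like triple-negative breast carcinoma cell line grown as adherent cells. These were WT cells, cells labelled SLUG KO that were expanded from single cells after editing with a guide to the start of exon 1 of SNAI2, and cells transiently transfected with siRNAs to SMAD2, SMAD3 and SMAD4 (siSMAD2/3/4) or with scrambled siRNA (Csi). The 16 ATAC-seq samples of the series were not analysed here.

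E2F factors are DNA-binding proteins that control the genes a cell needs to enter and pass through S phase. E2F1, E2F2 and E2F3 are activators that the retinoblastoma protein RB1 holds in check, while E2F4 binds mainly the pocket proteins RBL1 (p107) and RBL2 (p130) and serves as a repressor in resting cells. E2F7 and E2F8 are atypical repressors that bind DNA without a DP partner, and several E2F genes, RBL1 and MYBL2 are themselves known E2F targets. MYBL2 encodes B-MYB, which joins the MuvB core in S phase, when the RBL2- or RBL1-containing DREAM complex has come apart, and prepares the activation of G2/M genes with FOXM1. TGFβ is known to halt normal epithelial cells in G1.

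Library totals ranged from 14124688 to 38406952 counts. HRAS, the transforming gene, was at 40.8 CPM (reads per library total of 1000000, after TMM scaling, group mean) in unstimulated MI-spheres and at 220.4 CPM in MII-spheres. Transfection of siSMAD2/3/4 changed SMAD2 by -1.92 and SMAD4 by -1.73 on the log2 scale and took SMAD3 from 266.4 to 165.6 CPM. SNAI2 RNA was higher in the libraries labelled SLUG KO than in WT (61.9 against 28.3 CPM). Counts over the whole gene do not show a small edit in exon 1, so this is no check of the knockout. WT replicate 2 stood apart from WT replicates 1 and 3 across genes, with Pearson's r of 0.957 and 0.952 where the other WT pair had 0.989, and results that rest on it are given with and without it. The 7 epithelial markers mix basal genes with CDH1 and EPCAM, which are not particular to basal cells. Of them, KRT5, KRT17, LAMB3, CDH1 and EPCAM were at 18.2 CPM or more in every sphere library, and KRT14 was low in MI-spheres. TP63 was at 51.2 CPM in unstimulated and 87.7 CPM in stimulated MI-spheres but at 0.621 and 2.65 CPM in MII-spheres. The summed level of these markers was 2755 to 2815 CPM in unstimulated and 4645 to 4931 CPM in stimulated MI-spheres, and 1550 to 1599 CPM and 3057 to 3216 CPM in MII-spheres, and its part in the results on spheres was not tested. The 5 mesenchymal-like markers summed to at least 2183 CPM in every MDA-MB-231 library, although SPARC was near 0 in WT (0.576 CPM), and to at most 40.7 CPM in spheres. Of markers of other cell types, 4 leukocyte genes summed to at most 0.738 CPM in any library. The 4 fibroblast genes summed to 12.4 to 19.8 CPM in MI-spheres, to at most 0.816 CPM in MII-spheres and to 47.8 to 86.9 CPM in MDA-MB-231 cells. The 3 endothelial genes summed to 31.3 to 34.5 CPM in unstimulated and 13.2 to 14.7 CPM in stimulated MI-spheres, to 96.2 to 116.9 CPM in MII-spheres and to at most 9.28 CPM in MDA-MB-231 cells. Their part in the results was not tested.

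All 10 genes passed the low-count filter in every comparison. On GRCh38, E2F1 (ENSG00000101412.13) lies at chr20:33675477-33686385, RBL1 (ENSG00000080839.12) at chr20:36996349-37095997 and MYBL2 (ENSG00000101057.16) at chr20:43667019-43716495, so that 3 of the 10 share chromosome 20. E2F2 (ENSG00000007968.7) is at chr1:23506438-23531233, E2F3 (ENSG00000112242.15) at chr6:20401879-20493714 and E2F4 (ENSG00000205250.9) at chr16:67192155-67198918. E2F7 (ENSG00000165891.16) is at chr12:77021248-77065569 and E2F8 (ENSG00000129173.13) at chr11:19224063-19241620. RB1 (ENSG00000139687.16) is at chr13:48303744-48599436 and RBL2 (ENSG00000103479.17) at chr16:53433977-53491648. Counting ignored the strand, and 16.4% of the exon length of RBL2 and 3.6% of that of RBL1 overlap other genes on the opposite strand, so counts of these 2 genes are less certain.

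The promoters of 9 of the 10 genes were read from RefSeq (GRCh38.p14), each with 250 bases before and 50 after a start site. They were searched on both strands for the E2F words TTTCCCGC, TTTCGCGC, TTTGCCGC and TTTGGCGC and for the cell cycle homology region (CHR) word TTTGAA, through which DREAM and B-MYB-MuvB reach their targets. E2F words stood in E2F1, E2F2, E2F3 and RBL1, that is in 4 of the 9 windows, against 3.3% of all 27305 promoters, and the CHR word stood in E2F3 and RBL2, against 15.4% of all promoters. The NF-Y word CCAAT, held by 35.7% of all promoters, occurred 3 times in E2F1 and 4 times each in E2F3 and E2F7, and the SOX words AACAAAG and AACAATG (8.4% of all promoters) occurred in none of the 9. For comparison, 12 of 19 G1/S target genes with an entry held an E2F word, and 8 of 16 G2/M target genes held a CHR word. The RB1 window belongs to a start site inside the gene, not to its first exon, and the RBL2 window begins within the annotated gene. The start site of the MYBL2 window also lies within the annotated gene. The 120 bases before the start site are shown for the 4 genes with an E2F word. Of these, E2F1, E2F2 and RBL1 had a wider span of levels in spheres than E2F3. MYBL2 and E2F7, which rose most with TGFβ in MII-spheres, held none of these exact words. Near matches were not counted, such as CTTGGCGG in the MYBL2 window, so this is no sign that an E2F site is absent. Sequences run 5′ to 3′ on the strand of the gene, and capitals mark E2F and CHR words.
E2F1, chr20:33686386-33686505, minus strand: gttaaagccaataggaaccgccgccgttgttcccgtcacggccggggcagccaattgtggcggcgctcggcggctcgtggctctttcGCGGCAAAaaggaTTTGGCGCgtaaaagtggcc
E2F2, chr1:23531234-23531353, minus strand: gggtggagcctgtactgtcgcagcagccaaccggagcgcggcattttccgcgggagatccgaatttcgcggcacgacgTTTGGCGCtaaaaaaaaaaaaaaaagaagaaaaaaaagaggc
RBL1, chr20:37095998-37096117, minus strand: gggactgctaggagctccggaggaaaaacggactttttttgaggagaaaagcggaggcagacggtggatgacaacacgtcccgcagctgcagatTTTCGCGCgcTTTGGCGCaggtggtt
E2F3, chr6:20401759-20401878, plus strand: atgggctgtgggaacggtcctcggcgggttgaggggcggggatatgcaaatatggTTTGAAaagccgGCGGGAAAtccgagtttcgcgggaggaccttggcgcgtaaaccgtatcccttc
E2F1 and RBL1 carried a pair of E2F words within a few bases of each other, E2F2 carried 1, and E2F3 carried 1 next to a CHR word. In MYBL2, E2F4, E2F7, RBL2 and RB1 these E2F letters are not in the window, which says nothing about binding of the factors.

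Levels were compared between genes per length, as CPM per kilobase of exon. E2F4 was the highest of the 10 genes in each of the 4 sphere groups, with means from 12.4 to 16.4 CPM per kb, and RB1 and RBL2 came next. In MDA-MB-231 cells the order was another one. E2F1 led in WT and SLUG KO libraries (45.2 ± 5.17 and 39.5 ± 2.44 CPM per kb, SD, n = 3) and MYBL2 in Csi and siSMAD2/3/4 libraries (38.8 ± 1.41 and 21.7 ± 0.979 CPM per kb). E2F2 was the lowest gene in all 4 MDA-MB-231 groups and E2F7 in all 4 sphere groups.

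Across the 8 groups, E2F4, RB1, RBL2 and E2F3 varied least. The highest group mean exceeded the lowest 1.62-fold for E2F4, 2.03-fold for RB1, 3.04-fold for RBL2 and 3.19-fold for E2F3. For the other 6 genes this span was 13.0-fold (RBL1), 22.0-fold (E2F2), 22.6-fold (E2F1), 28.3-fold (E2F8), 48.7-fold (MYBL2) and 147-fold (E2F7). Unstimulated MII-spheres held the lowest mean for 8 of the 10 genes. The share of all genes with their lowest mean there was not counted, so this is a description only. E2F3 was lowest in unstimulated MI-spheres, where it overlapped with unstimulated MII-spheres, and RBL2 was lowest in WT cells. E2F2 was the 1 gene besides RBL2 with its highest mean in unstimulated MI-spheres. Neighbouring groups in the order of levels overlapped in places, among them WT and SLUG KO for E2F1 and RBL1, WT and Csi for MYBL2 and E2F4, and unstimulated and stimulated MI-spheres for E2F7, RBL1 and RBL2. The overlaps of WT for RBL1, MYBL2 and E2F4 rest on WT replicate 2, as the other WT libraries lay outside the range of the group compared. Spheres and MDA-MB-231 cells differ in cell line and culture form, and Csi and siSMAD2/3/4 libraries also in sequencing batch, so these differences cannot be told apart and were not tested.

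**Figure D1:**
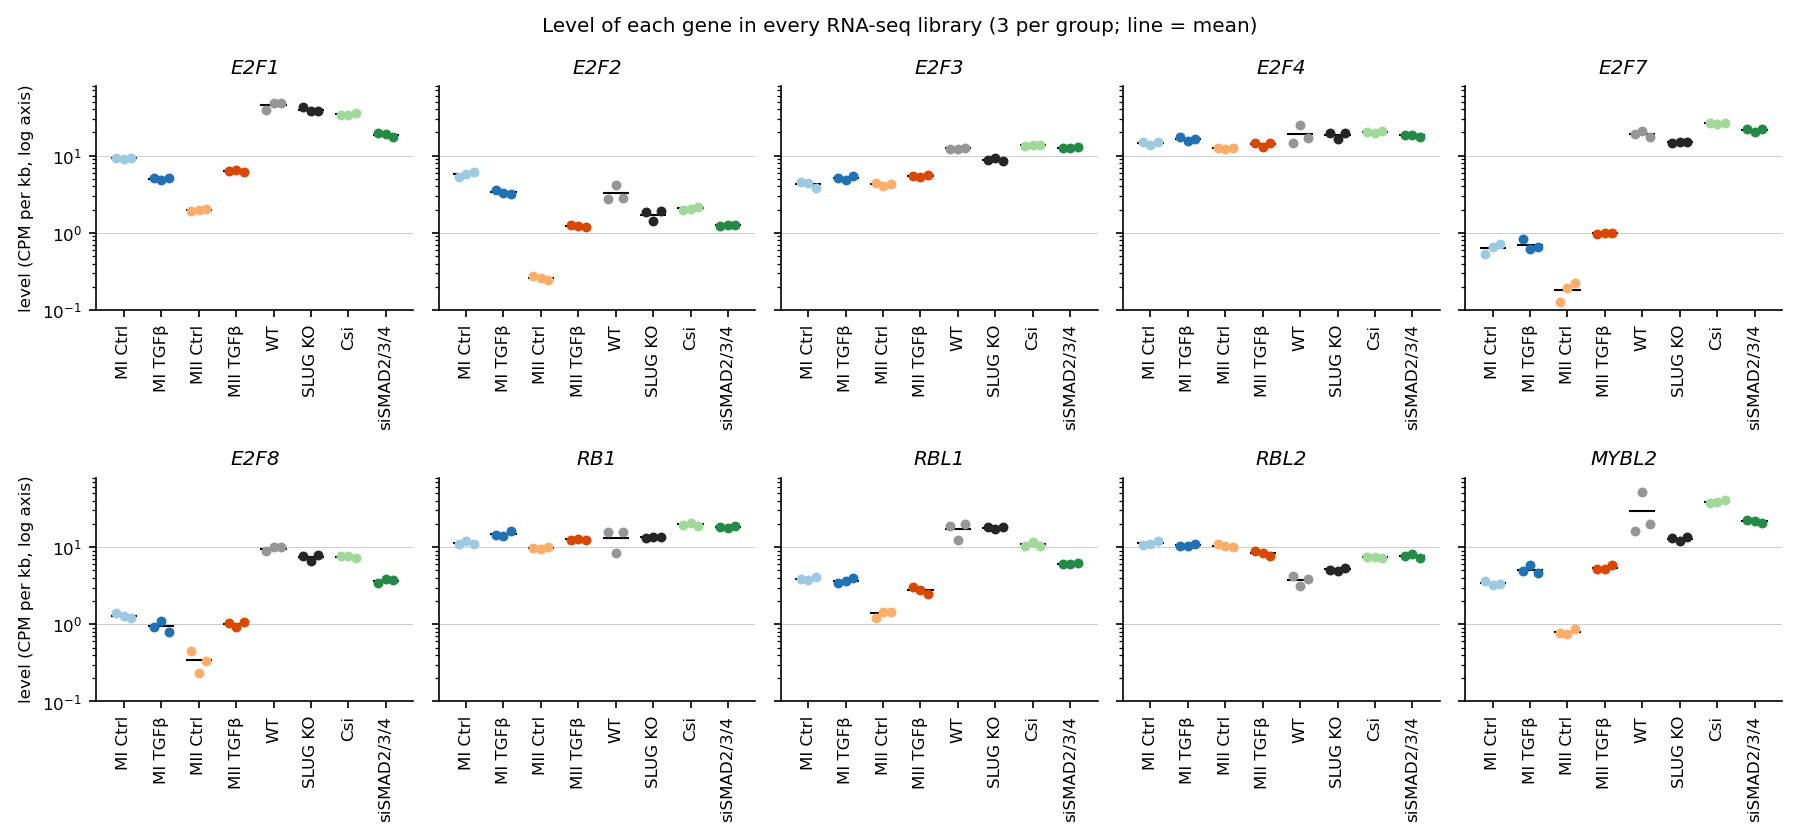
Level of each of the 10 genes in every library, in CPM per kilobase of exon on a log axis, with 3 points per group and a line at the group mean. Unstimulated MII-spheres lie lowest for 8 genes (share of all genes not counted), while E2F3, E2F4, RB1 and RBL2 stay within a narrow band.

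The first comparison asked how the HRAS-transformed line differs before stimulation. In unstimulated MII-spheres the activators E2F1 and E2F2, the atypical repressors E2F7 and E2F8, RBL1 and MYBL2 were far below MI-spheres, and E2F4, RB1 and RBL2 slightly below. In all, 9 of the 10 genes were lower at an adjusted p under 0.05 and none higher, where 32.5% of all 17862 genes tested were lower and 31.7% higher (edgeR's quasi-likelihood test, Benjamini-Hochberg adjustment over all genes, as for each adjusted p below). Less RNA per cell and fewer cycling cells cannot be told apart in RNA from whole cultures. E2F2 had 29.1, 31.4 and 33.3 CPM in the MI Ctrl libraries and 1.52, 1.41 and 1.33 CPM in the MII Ctrl libraries. The groups lay far apart, with a log2 fold change of -4.45 (SE 0.120, adjusted p = 4.11e-37), the largest of the 10. E2F1 had 25.0, 24.7 and 25.4 CPM against 5.23, 5.39 and 5.56 CPM (log2 fold change -2.20, SE 0.0940, adjusted p = 8.67e-28). MYBL2 fell from 9.44 ± 0.552 to 2.21 ± 0.202 CPM (SD, n = 3; log2 fold change -2.09, adjusted p = 2.27e-18), E2F8 from 5.32 ± 0.367 to 1.41 ± 0.442 CPM (3.99-fold lower, adjusted p = 2.56e-12) and E2F7 from 3.98 ± 0.609 to 1.13 ± 0.304 CPM (-1.76, adjusted p = 2.18e-09). RBL1, the pocket protein gene that cycling cells use, fell from 23.3 ± 1.05 to 8.24 ± 0.825 CPM (-1.47, adjusted p = 4.70e-21). The other 2 pocket protein genes moved little, RB1 by -0.22 (adjusted p = 2.18e-04) and RBL2 by -0.11 (adjusted p = 0.0413), and the RBL2 call was lost in 8 of the alternatives tried, among them the fits without MI Ctrl replicate 3, MII Ctrl replicate 2 or MII Ctrl replicate 3. E2F3 stood at 22.1 ± 2.12 and 22.2 ± 0.847 CPM, with a log2 difference of 0.00 and a 95% interval from -0.15 to 0.15.

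The genes these factors act on were lower as well. Of 25 E2F target genes of G1/S, 23 were lower and none higher, with a median log2 fold change of -1.16, where the median of all genes was 0.02. RRM2, a subunit of ribonucleotide reductase, fell by 2.33 and PCNA, the sliding clamp of DNA polymerases, by 1.19 on the log2 scale. All 20 B-MYB-MuvB target genes of G2/M were lower, with a median of -1.90, among them TOP2A (topoisomerase II, -2.19) and CENPF (a kinetochore protein, -1.97). Of the 12 partner genes 5 were lower and 2 higher. FOXM1, the partner of B-MYB at G2/M genes, fell by 1.73 and TFDP1, the main DP partner of E2Fs, by 0.54 on the log2 scale. Among 13 G1 cyclins, kinases and inhibitors tested, 9 were lower and 3 higher. CCNE1, CCNE2 and CDC25A belong both to this list and to the G1/S targets. CCND3 (-1.35) and CCND1 (-0.73), which encode D-type cyclins, were lower, while CDKN1A (0.49), which encodes the CDK inhibitor p21, and CDK6 (0.52) were higher. The inhibitor genes CDKN2A and CDKN2B, upstream of RB1, were at 0 counts in all 24 libraries, which allows up to 0.212 CPM at the lowest depth (counting error only).

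TGFβ moved the 10 genes of MI-spheres in different directions. The activators E2F1 and E2F2 and the repressor E2F8 fell, while MYBL2, RB1 and, slightly, E2F3 rose. With 3 of 10 genes higher and 4 lower, the shares were near those of all 16863 genes, of which 28.7% were higher and 27.4% lower. Without TMM scaling, calls over all genes changed from 4833 higher and 4613 lower to 3271 and 6308, as all log2 fold changes shifted by a median of -0.14. E2F1 dropped from 25.0 ± 0.344 CPM to 13.7, 13.0 and 13.9 CPM (log2 fold change -0.97, SE 0.0795, adjusted p = 1.78e-09). E2F2 dropped to 19.7, 18.2 and 17.2 CPM (log2 fold change -0.85, SE 0.0819, adjusted p = 2.05e-08). In both genes all stimulated libraries lay below all unstimulated ones. E2F8 fell by 0.53 (adjusted p = 0.008), a call that was lost without MI Ctrl replicate 1 (adjusted p = 0.0526) and in DESeq2 (adjusted p = 0.0858). MYBL2 went the other way, from 10.1, 9.06 and 9.20 CPM to 13.8, 16.1 and 12.8 CPM, without overlap (log2 fold change 0.51, SE 0.111, adjusted p = 5.79e-04). RB1 rose from 73.1 ± 4.41 to 95.6 ± 7.16 CPM (0.31, adjusted p = 2.39e-04). E2F3 (0.19, adjusted p = 0.0483) and RBL2 (-0.18, adjusted p = 0.0122) were near the threshold, and both calls were lost when single libraries were left out, E2F3 without MI Ctrl replicate 2 or 3 or MI TGFβ replicate 1 or 3 and RBL2 without MI Ctrl replicate 3 or MI TGFβ replicate 1. E2F7 (0.06, adjusted p = 0.767), E2F4 (0.09, adjusted p = 0.218) and RBL1 (-0.17, adjusted p = 0.0747) did not pass the test.

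The target genes were similarly divided in MI-spheres. Of the 25 G1/S targets 5 rose and 6 fell, and their median of -0.02 equalled that of all genes. The E-type cyclins CCNE2 (-1.16) and CCNE1 (-0.79) fell, while CHEK1, a checkpoint kinase (0.52), rose. Of the 20 G2/M targets 9 rose, among them BIRC5 (survivin, 0.56) and CCNB1 (cyclin B1, 0.49), and 1 fell, CDC25C (-0.36). FOXM1 rose by 0.49 (adjusted p = 0.0041) and TFDP1 by 0.40 (adjusted p = 2.73e-06), and of the 12 partners 4 rose and 2 fell. Of the 13 G1 regulators 3 rose and 6 fell, with CDK4 at 0.71 and CDKN1A at 0.34 higher, and CCND1 at -0.60 and CCNE2 lower. Of 6 apoptosis genes linked to E2F1 that could be tested, 2 rose and 2 fell.

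In MII-spheres TGFβ raised 9 of the 10 genes and lowered RBL2, where 29.9% of all 16396 genes were higher and 27.6% lower (3193 higher and 6407 lower without TMM scaling, in place of 4906 and 4532). MYBL2 rose most, from 2.12, 2.08 and 2.45 CPM to 14.4, 14.3 and 16.5 CPM (6.67-fold; log2 fold change 2.74, SE 0.144, adjusted p = 1.03e-22). E2F7 rose from 0.795, 1.21 and 1.39 CPM to 6.09, 6.20 and 6.25 CPM (log2 fold change 2.38, SE 0.213, adjusted p = 5.32e-14). E2F2 rose from 1.42 ± 0.0958 to 6.70 ± 0.176 CPM (SD, n = 3; log2 fold change 2.20, SE 0.196, adjusted p = 4.35e-14). None of these groups overlapped. E2F1 rose from 5.39 ± 0.162 to 17.0, 17.5 and 16.4 CPM (1.62, SE 0.114, adjusted p = 1.01e-17) and E2F8 from 1.41 ± 0.442 to 4.18 ± 0.350 CPM (1.61, SE 0.238, adjusted p = 7.85e-08). Thus activators and atypical repressors rose together. Among the pocket proteins, RBL1 rose from 8.24 ± 0.825 to 16.4 ± 1.73 CPM (0.94, adjusted p = 1.51e-10) and RB1 from 62.5 ± 1.73 to 81.0 ± 1.21 CPM (0.34, adjusted p = 1.29e-07), while RBL2, the pocket protein of resting cells, fell from 84.3 ± 3.61 to 67.8 ± 5.31 CPM (-0.35, adjusted p = 2.25e-07). E2F3 rose by 0.33 (adjusted p = 1.31e-04). E2F4 was at 0.14 with an adjusted p of 0.0498, and this call was lost in 10 of the alternatives, 5 of them with 1 library left out (each of the 6 libraries but MII TGFβ replicate 2).

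Target genes rose with them. Of the 25 G1/S targets 24 rose and none fell, with a median log2 fold change of 1.39 against -0.02 for all genes, with the smallest adjusted p for RRM2 (2.97) and CDC6, a replication licensing factor (2.40). Of the 20 G2/M targets 19 rose and none fell (median 1.49), with the smallest adjusted p for TOP2A (2.15) and CDK1, the mitotic kinase (2.39). Of the 12 partners 9 rose and none fell, with FOXM1 at 1.58 (adjusted p = 7.26e-09), MYBL1, a paralog of MYBL2, at 1.60 (adjusted p = 2.75e-06) and TFDP1 at 0.38 (adjusted p = 1.61e-08). Of the 13 G1 regulators 9 rose, among them CDC25A, the phosphatase that activates CDK2 (1.72), and CCND1 (0.36), and CDKN1C, which encodes the CDK inhibitor p57, fell (-1.88). Of the 6 apoptosis genes 3 rose and 2 fell. PMAIP1 (NOXA) was at -1.47 and BBC3 (PUMA) at -0.86, close to their log2 fold changes in MI-spheres (-1.23 and -0.81).

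**Figure D2:**
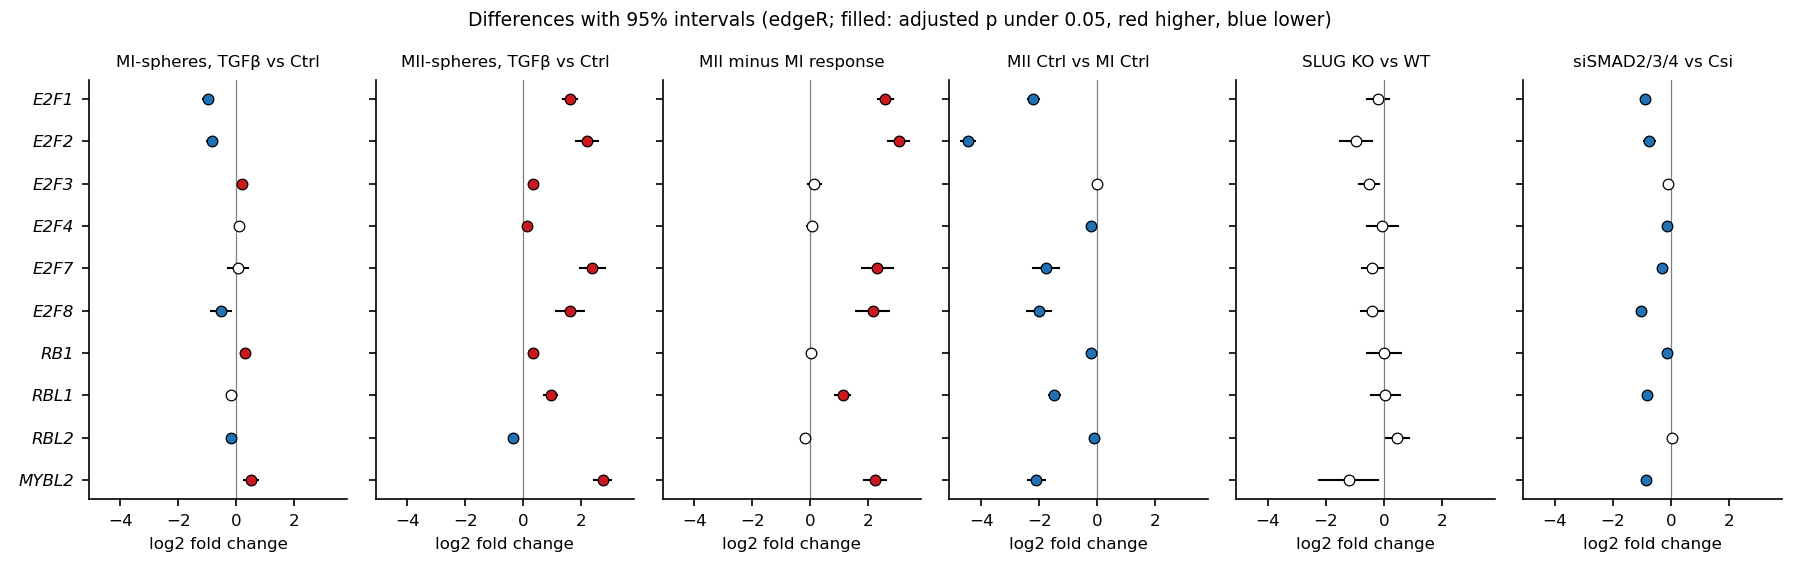
Log2 fold change of each gene (horizontal axis) with its 95% interval in the 6 comparisons. Filled points passed an adjusted p of 0.05 in edgeR, red for higher and blue for lower, and in MII-spheres all points but RBL2 are red, while SLUG KO against WT has no filled point.

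The difference between both responses was tested as the interaction of line and TGFβ in a fit of all 12 sphere libraries. The response of MII-spheres exceeded that of MI-spheres for 6 of the 10 genes and fell short for none, where 12.6% of all 18591 genes were higher and 9.75% lower. The excess was 3.06 on the log2 scale for E2F2 (SE 0.180, adjusted p = 1.43e-16) and 2.59 for E2F1 (SE 0.129, adjusted p = 1.02e-18), both of which fell in MI- and rose in MII-spheres. E2F8 did the same, although its call in MI-spheres was lost in some alternatives, and had 2.16 (SE 0.281, adjusted p = 1.09e-07). The excess of E2F7 was 2.33 (SE 0.271, adjusted p = 1.04e-08), of MYBL2 2.24 (SE 0.183, adjusted p = 1.44e-12) and of RBL1 1.12 (SE 0.132, adjusted p = 1.29e-08). For the other 4 genes no difference between the responses was detected, with 95% intervals from -0.08 to 0.37 for E2F3, -0.12 to 0.24 for E2F4, -0.12 to 0.21 for RB1 and -0.33 to 0.00 for RBL2. All 25 G1/S targets (median 1.72) and all 20 G2/M targets (median 1.24) responded more in MII-spheres. The interaction was also higher for 5 of the 12 partners, FOXM1 (1.10, adjusted p = 5.59e-04) and MYBL1 (1.91, adjusted p = 1.97e-04) among them, but not for TFDP1 (0.00, adjusted p = 0.999), and for 7 of the 13 G1 regulators, while 1 of them, CDKN1C, was lower (adjusted p = 0.00956). CCND1, which fell in MI- and rose in MII-spheres, had an excess of 0.96 (adjusted p = 3.34e-15). These comparisons share libraries with that of the unstimulated lines, in which the same 6 genes started lower in MII-spheres. After stimulation E2F2 in MII-spheres (6.59 to 6.90 CPM) still lay below both MI groups (17.2 to 33.3 CPM), E2F1 (16.4 to 17.5 CPM) lay between stimulated (13.0 to 13.9 CPM) and unstimulated (24.7 to 25.4 CPM) MI-spheres, and E2F7 (6.09 to 6.25 CPM) lay above both (3.32 to 5.16 CPM). These positions are descriptions and were not tested.

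SMAD2, SMAD3 and SMAD4, which transmit TGFβ signals, were depleted in MDA-MB-231 cells, and the labels give no TGFβ dose for these libraries. Whether the differences came about through TGFβ signals was not tested. With siSMAD2/3/4, 8 of the 10 genes were lower than with Csi and none higher, where 19.7% of all 17696 genes were lower and 16.3% higher. E2F8 had 31.5, 31.9 and 30.1 CPM with Csi and 14.3, 15.8 and 15.5 CPM with siSMAD2/3/4 (log2 fold change -1.04, SE 0.0709, adjusted p = 2.95e-13). E2F1 had 90.8, 91.9 and 97.2 CPM against 52.3, 51.7 and 46.6 CPM (-0.90, SE 0.0499, adjusted p = 2.83e-15). MYBL2 had 104.5, 106.8 and 112.1 CPM against 62.5, 61.0 and 57.2 CPM (-0.85, SE 0.0466, adjusted p = 2.50e-15). In each of these genes the groups lay clearly apart. RBL1 fell from 64.6 ± 3.71 to 36.5 ± 0.267 CPM (-0.83, adjusted p = 9.59e-14) and E2F2 from 11.3 ± 0.501 to 6.84 ± 0.102 CPM (-0.74, adjusted p = 2.17e-07). E2F7 fell less, from 166.0 ± 2.72 to 134.6 ± 5.59 CPM (-0.31, adjusted p = 5.30e-07). E2F4 (-0.15, adjusted p = 0.0141) and RB1 (-0.13, adjusted p = 0.025) were slightly lower, and E2F3 (-0.11, adjusted p = 0.064) and RBL2 (0.04, adjusted p = 0.561) did not pass the test. The E2F4 call was lost without Csi replicate 3 or siSMAD2/3/4 replicate 3, and the RB1 call without Csi replicate 2 or siSMAD2/3/4 replicate 1 or 2.

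The labels give 1 sequencing batch for all 6 of these libraries, while the file names place siSMAD2/3/4 replicates 1 and 2 on another flow cell than the other 4, and which is right is not known. In an alternative chosen after seeing the data, siSMAD2/3/4 replicate 3 alone was set against Csi. This compares a single library, assumed to vary like the Csi libraries, from which all of the spread was taken. In this comparison the log2 fold changes of E2F1, E2F2, E2F7, E2F8, RBL1 and MYBL2 ranged from -0.99 to -0.25. Those of E2F4 (-0.18), RB1 (-0.07), E2F3 (-0.06) and RBL2 (-0.03) were smaller in size. A flow cell term in the fit of all 6 libraries rests on the same contrast of replicate 3 with Csi and is no separate check (RB1, adjusted p = 0.399).

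In the fit of all 6 libraries, all 25 G1/S targets (median -0.94) and all 20 G2/M targets (median -0.61) were lower, with the smallest adjusted p for the replicative helicase subunits MCM4 (-1.09) and MCM3 (-0.96) in the first list and for TOP2A (-0.81) and CCNA2, which encodes cyclin A2 (-0.78), in the second. Of the 12 partners 6 were lower, among them FOXM1 (-0.65) and LIN54, the DNA-binding subunit of MuvB (-0.57). Of 14 G1 regulators 9 were lower, including CDK6 (-0.51) and CDKN2C (-0.56), and 3 higher, including CDKN1C (1.04). Of the 7 apoptosis genes 3 were lower, among them TP73, an E2F1 target, which fell by 1.25 on the log2 scale (adjusted p = 1.30e-08).

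For the libraries labelled SLUG KO, none of the 10 genes passed the test against WT, where 1.45% of all 17428 genes were higher and 1.89% lower. At an unadjusted p under 0.05, 5 of the 10 genes lay lower and 1 higher, where 11.1% of all genes lay lower and 8.0% higher at that limit, and DESeq2 called 1 of the 10, E2F2 (-0.90, adjusted p = 0.0286). MYBL2 had 45.6, 145.3 and 54.9 CPM in WT and 36.5, 33.7 and 37.1 CPM in SLUG KO libraries. All 3 SLUG KO libraries lay below all WT libraries, but WT replicate 2 lay far above its group (log2 fold change -1.22, SE 0.430, adjusted p = 0.191). E2F2 had 15.2, 22.9 and 15.7 CPM against 10.1, 7.72 and 10.3 CPM (-0.96, SE 0.237, adjusted p = 0.0868). RB1 had 100.9, 54.7 and 100.1 CPM and RBL1 110.8, 72.8 and 119.9 CPM in WT, so that WT replicate 2 was low in both of these genes. Without WT replicate 2, 6 of the 10 genes were lower and 1 was higher, while the calls over all genes grew to 3013 higher and 2579 lower. The log2 fold changes were then -0.73 for E2F2 (adjusted p = 6.24e-04), -0.51 for E2F3 (adjusted p = 5.15e-04), -0.50 for MYBL2 (adjusted p = 0.00116), -0.35 for E2F8 (adjusted p = 0.0139), -0.32 for E2F7 (adjusted p = 0.0101), -0.23 for RB1 (adjusted p = 0.0489) and 0.34 for RBL2 (adjusted p = 0.0131). These calls depend on whether that library is included. None of the 12 partners and none of the apoptosis genes passed the test with all libraries. Calls without WT replicate 2 are not reported here for these lists, the target lists and the G1 regulators. A lack of calls in them is therefore no sign of a lack of change. Of the target lists, 1 gene each was lower with all libraries, RRM2 (-1.23, adjusted p = 0.0159) and CDC20, an activator of the anaphase-promoting complex (-0.97, adjusted p = 0.035). CDKN1C was higher (1.56, adjusted p = 0.00748) and CDKN2C lower (-1.16, adjusted p = 0.0342).

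Ratios within a library do not depend on the scaling between libraries. They were compared with an exact two-sided permutation test, for which 3 against 3 libraries cannot give a p under 0.1. RBL1 per kilobase was below RBL2 in all spheres, and its mean log2 ratio in MI-spheres was -1.53 ± 0.0435 without and -1.53 ± 0.0521 with TGFβ (SD, n = 3; exact p = 0.9). In MII-spheres the ratio went from -2.91 ± 0.205 to -1.61 ± 0.0403 with TGFβ, without overlap (difference 1.31, exact p = 0.1). RBL1 exceeded RBL2 in WT (2.17 ± 0.210), SLUG KO (1.80 ± 0.0347) and Csi libraries (0.55 ± 0.0772), but not in siSMAD2/3/4 libraries (-0.31 ± 0.0935). WT and SLUG KO did not overlap in this ratio, nor did Csi and siSMAD2/3/4 (exact p = 0.1 for each).

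The sum of the activators E2F1, E2F2 and E2F3 exceeded that of the atypical repressors E2F7 and E2F8 in each of the 24 libraries. The log2 ratio in MI-spheres was 3.33 ± 0.00413 without and 3.05 ± 0.165 with TGFβ, and in MII-spheres 3.67 ± 0.203 and 2.71 ± 0.0749. The differences of -0.28 and -0.96 came without overlap of the groups (exact p = 0.1 for each). E2F3, which moved little, made up most of the activator sum in unstimulated MII-spheres (4.27 CPM per kb, with E2F1 at 2.005 and E2F2 at 0.260). In unstimulated MI-spheres it did not (4.26, with E2F1 at 9.29 and E2F2 at 5.72). E2F7 and E2F8 had only 12 to 36 counts per library in unstimulated MII-spheres. Ratios without E2F3 were not tested. In MDA-MB-231 cells the log2 ratio was between 0.38 ± 0.0775 (siSMAD2/3/4) and 1.17 ± 0.0741 (SLUG KO), WT and SLUG KO overlapped (exact p = 0.4), and siSMAD2/3/4 lay below Csi without overlap (difference -0.19, exact p = 0.1).

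Over the 24 libraries the log2 levels of E2F1, E2F7, E2F8 and RBL1 ran closely together, with Pearson's r from 0.886 to 0.989 between pairs. These were not set apart from all others, as E2F7 had r of 0.963 with E2F3 and 0.944 with MYBL2. RBL2 ran against E2F1 (r = -0.797) and E2F8 (r = -0.809), and the highest r of E2F2 was 0.480, with E2F1. Over the 12 sphere libraries alone the values of RBL2 and E2F2 were very different. RBL2 had r of 0.002 with E2F1 and -0.051 with E2F8, and E2F2 had 0.897 with E2F1 and 0.967 with RBL1. The r of E2F7 there was 0.601 with E2F3 and 0.957 with MYBL2. The points share cell line and batch, so these values are descriptions. Among all genes that passed the low-count filter, E2F1 was among the genes most like E2F8 (r = 0.989), TCF19 was among those most like E2F1 (r = 0.984), and the mitotic kinase gene AURKB was among those most like E2F8 (r = 0.987). RBL1 was most like the kinetochore genes DSN1 (r = 0.993) and KNL1 (r = 0.991) and KIF20B (r = 0.990), and E2F7 most like GTSE1, NRM and ENO2 (r = 0.988 to 0.989). MYBL2 was most like the collagen gene COL4A2 (r = 0.983), the lamin gene LMNB1 and HYOU1 (both r = 0.971). E2F3 was most like PSMD11, SHC3 and ELK3 (r = 0.981 to 0.985), E2F4 most like U2AF2, RNH1 and DAZAP1 (r = 0.968 to 0.973), and RBL2 most like PNRC1, TOB1 and RSPH3 (r = 0.966 to 0.979). RB1 (PTGES3, r = 0.972, and TFG, r = 0.948) and E2F2 (ANXA8L1, r = 0.874, and HMMR, r = 0.870) each had a gene without a symbol among the 3 most alike.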

How the data were processed

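RNA-seq counts of 24 libraries were used. Per the labels, the file headers and the methods of the study, the authors used Trimmomatic for trimming, STAR for alignment to GRCh38 and featureCounts 2.0.0 to count read pairs over the exons of GENCODE release 38 (mapping quality of at least 30, strand ignored). They deposited raw counts per gene without normalization, and compared groups with DESeq2.

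A separate model was fitted to the 6 libraries of each comparison, and 1 to all 12 sphere libraries for the interaction. The quasi-likelihood test of edgeR 4.0.16 (R 4.3.3) was applied to genes kept by filterByExpr, with TMM factors, Benjamini-Hochberg adjustment over all genes and a threshold of 0.05. Groups came from the labels. The study describes its results in general as coming from independent biological repeats, and the labels do not give the culture of each RNA-seq library, so p-values measure the spread between libraries, part of which may be technical. Libraries of a group differed by more than sampling noise. Totals of 14124688 to 38406952 counts limit the precision of low genes most.

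The genes, the lists of targets, partners and markers and the tests were chosen with earlier results of these data known. Named are all 10 genes, from each other list up to 2 genes a direction with the smallest adjusted p, the paralogs and partners E2F5, E2F6, TFDP1, TFDP2, FOXM1 and MYBL1, the genes that check labels or mark cell types, and the 3 genes most like each of the 10, by Pearson's r of log2 CPM (prior count 2) over 22194 genes. Some genes that this rule names are not reported here. CDKN2A and CDKN2B were named after their values were seen. Alternatives were DESeq2 1.42.0, its size factors within edgeR, library totals without TMM, no filter on low counts, a minimum of 10 counts per library, a replicate block, sphere groups fitted jointly, a flow cell term, leaving out each library, 0.5 added to counts before ratios, likeness within the first batch and, chosen after seeing the data, siSMAD2/3/4 replicate 3 alone. Fits were tested on simulated data beforehand. These counts were drawn from the same model that edgeR fits, so they are no check against an outlying library such as WT replicate 2 or a flow cell difference.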

Additional observations from a re-analysis of the deposited data

Results flagged for a closer look

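The response to TGFβ differed between MII- and MI-spheres for 6 of the 10 genes in the test of the interaction itself (edgeR, adjusted p under 0.05). All 6 were higher, where 12.6% of all 18591 genes were higher and 9.75% lower. The same 6 genes started lower in unstimulated MII-spheres, whose libraries are part of this comparison. The difference, MII minus MI on the log2 scale, was 2.594 for E2F1, 3.064 for E2F2, 2.325 for E2F7, 2.160 for E2F8, 1.121 for RBL1 and 2.239 for MYBL2. For E2F1, E2F2 and E2F8 the responses were opposite, with a fall in MI- and a rise in MII-spheres. The fall of E2F8 in MI-spheres is less certain, as its call was lost with DESeq2 and without MI Ctrl replicate 1. MYBL2 rose in both, and E2F7 and RBL1 rose in MII-spheres and did not pass the test in MI-spheres.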

How the results depend on the processing

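The number of genes called among the 10 changed by more than 1.5 times in 2 comparisons. In MI-spheres DESeq2 called 2 genes lower in place of 4. For SLUG KO, where none was called, DESeq2 called 1 gene lower, and leaving out single libraries gave 0 to 6 lower and 0 to 1 higher, with the 6 and 1 coming from the fit without WT replicate 2. The calls of E2F1, E2F2, MYBL2 and RB1 in MI-spheres, of all genes but E2F4 in MII-spheres, of the 6 genes of the interaction and of E2F1, E2F2, E2F7, E2F8, RBL1 and MYBL2 in the unstimulated lines and with siSMAD2/3/4 kept their direction and side of the threshold in every alternative run. RBL1 in MI-spheres (-0.17) passed the threshold in 4 alternatives. Calls at small effects were lost in part, namely those of E2F3, E2F8 and RBL2 in MI-spheres, E2F4 in MII-spheres, RBL2 in the unstimulated lines, and E2F4 and RB1 with siSMAD2/3/4, and the cause was not tested.

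Without TMM, the log2 fold changes of all genes shifted by -0.14 (MI-spheres) and -0.13 (MII-spheres) at the median. The direction of each called gene among the 10 held. The calls over all genes in MII-spheres were then 3193 higher and 6407 lower, in place of 4906 and 4532. For SLUG KO against WT they were 252 higher and 329 lower, against 554 and 659 with DESeq2, 400 and 573 with no filter on low counts, 143 and 117 with 10 counts or more in each library, 87 and 168 with a replicate block, and 49 to 3013 and 79 to 2579 with single libraries left out. With siSMAD2/3/4 they were 2882 and 3483, against 1873 and 2489 with flow cell as a term and 1725 and 2202 with replicate 3 alone. Libraries with the same replicate number did not deviate together across genes (correlations of deviations from -0.123 to 0.032). This cannot exclude that they shared a culture or preparation, which the labels do not give. With a replicate block, 8 genes were higher in MII-spheres in place of 9 (E2F4, adjusted p = 0.0709), 5 lower in MI-spheres in place of 4 (RBL1, adjusted p = 0.0498) and 8 lower in the unstimulated lines in place of 9 (RBL2, adjusted p = 0.0508), and no other call among the 10 changed. Over the 18 libraries of the first batch, the most similar gene was another than the 3 named for E2F2, E2F3, E2F7, E2F8, RB1, RBL1 and RBL2. Depth limits E2F7 and E2F8 in spheres most, where unstimulated MII-spheres had 1.13 and 1.41 CPM.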
